A study of Mus musculus with 4 samples.

Results

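Havcr1, Lcn2, Clu, Spp1 and Cst3 are the genes of KIM-1, NGAL, clusterin, osteopontin and cystatin C, proteins that are used as markers of kidney tubule injury or filtration. They were taken by name from a PCR array of mouse genes linked to nephrotoxicity, and all 5 were among its 84 target genes. The array was run on MCT, an epithelial cell line from mouse kidney tubules, with 1 sample for each of 4 conditions. The cells were left untreated or received the calcineurin inhibitor cyclosporine A (CsA, 10 μg/ml), the NFAT inhibitor peptide 11R-VIVIT (1 μM, labelled 11R) or the p38 MAPK inhibitor SB203580 (10 μM). The study's general methods state 24 h for these treatments. No genotype, transgene or further agent is named for any group. The comparisons ask whether CsA, a drug that damages the kidney, changes nephrotoxicity genes in tubule cells and whether blocking NFAT or p38 MAPK does the same.

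Injured proximal tubule cells place KIM-1 on their luminal membrane, where it binds phosphatidylserine on dying cells, and shed its outer part into the urine. NGAL is a secreted lipocalin that binds iron-carrying siderophores, clusterin is a secreted chaperone, and osteopontin is a secreted phosphoprotein that binds integrins and CD44. These 4 genes are known to be induced in tubule cells by injury. Cystatin C is a secreted inhibitor of cysteine proteases that most cells make at a steady rate, and it serves as a filtration marker because the glomerulus passes it and the tubule takes it up.

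Each value is a Ct, the PCR cycle at which the fluorescence crosses the detection threshold, so that an earlier cycle means more transcript and 1 cycle corresponds to 2-fold if each cycle doubles the product. Levels were taken relative to Actb (beta-actin), and a log2 change is the difference of these relative cycles between conditions. A change of at least 2-fold was counted as raised or lowered. Since each condition is a single sample, the replicate error is unknown, no difference was tested, and no order of neighbouring levels can be set against an error. RNA was taken from whole cultures, in which fewer expressing cells and less transcript per cell cannot be told apart. The Ct of Actb was 18.12 in untreated cells, 17.84 with CsA, 18.13 with 11R-VIVIT and 17.81 with SB203580. Over the 84 target genes the Ct ranged from 16.96 to 37.31, and a Ct of 35 or later, where few template molecules are left, was treated as not detected. That applied to between 5 and 12 genes per sample and to none of the injury markers. The choice of reference matters for both CsA and SB203580. With no reference, their changes against untreated cells were higher by 0.27 and 0.31 on the log2 scale, and those of 11R-VIVIT were lower by 0.01. When the median Ct of the 69 genes that passed this limit in every sample replaced Actb, all CsA changes against untreated cells were lower by 0.50 on the log2 scale, those of SB203580 by 0.09, and those of 11R-VIVIT were higher by 0.01.

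The labelled tissue is the convoluted tubule of the kidney. Of the fixed tubule markers analysed here, the array held 4 proximal genes (Gamt, Gatm, Slc22a6 and Abcc2) and 2 distal genes (Egf and Calb1). In untreated cells the proximal genes had late Ct values between 32.14 and 33.04, Egf had 28.95, and Calb1 was not detected. The array held 0 of the 7 fixed markers of leukocytes, endothelium and fibroblasts.

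The stretches upstream of 3 of these genes are shown because Spp1 and Lcn2 were the injury markers with the highest log2 changes under CsA against untreated cells, while Cst3 was the steadiest of the 5. They are the 250 bases before the RefSeq start site at the 5′ end of the gene in the mouse build GRCm38.p6, written 5′ to 3′ on the strand of the gene, with capitals for the NFAT core GGAAA and the TATA motif TATAAA on either strand.
Spp1 (chr5:104434861-104435110, plus strand): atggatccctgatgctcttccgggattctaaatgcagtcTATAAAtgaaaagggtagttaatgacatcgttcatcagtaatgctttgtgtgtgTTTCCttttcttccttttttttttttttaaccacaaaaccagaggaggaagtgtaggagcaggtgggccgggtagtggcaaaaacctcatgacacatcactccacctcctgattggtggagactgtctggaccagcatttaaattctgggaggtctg
Lcn2 (chr2:32387740-32387989, minus strand): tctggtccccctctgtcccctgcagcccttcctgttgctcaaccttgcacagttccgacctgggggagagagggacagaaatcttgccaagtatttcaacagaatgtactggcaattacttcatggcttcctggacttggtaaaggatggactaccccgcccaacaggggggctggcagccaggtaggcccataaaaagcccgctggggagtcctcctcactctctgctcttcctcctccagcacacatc
Cst3 (chr2:148875513-148875762, minus strand): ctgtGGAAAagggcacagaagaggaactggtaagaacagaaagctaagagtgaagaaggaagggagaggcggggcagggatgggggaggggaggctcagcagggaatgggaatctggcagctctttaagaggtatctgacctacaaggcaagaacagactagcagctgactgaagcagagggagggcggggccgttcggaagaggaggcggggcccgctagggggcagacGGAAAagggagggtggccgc
The letters GGAAA occurred 1 time for Spp1, 2 times for Cst3 and 0 times for Lcn2, where 55.6% of 32851 RefSeq promoter windows of this length held them. TATAAA occurred 1 time for Spp1, at position -211 from the start site, and in 12.4% of the windows. The AP-1 motif TGANTCA was found in none of the 3 and in 6.75% of the windows. A match of letters is a description of the sequence and shows no binding. The listed windows of Havcr1 and a further one of Spp1, which holds GGAAA and no TATAAA, lie within the annotated genes and are not shown, and Clu has no entry.

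Relative to Actb, the injury markers did not all move in 1 direction with any treatment. For SB203580 this rests on Cst3 alone, at -0.06, and with no reference all 5 markers lay above untreated cells. With SB203580 the 4 inducible markers lay above untreated cells under all 3 references tried (Actb, the array median and none), 2 of them by less than 2-fold. Against untreated cells CsA raised 1 of the 5 at least 2-fold (Spp1) and lowered 1 (Havcr1), where it raised 20% and lowered 16.2% of the 80 array genes with a value. SB203580 raised 2 (Clu and Spp1) and lowered 0, where it raised 15.2% and lowered 8.86% of 79 genes. 11R-VIVIT raised 0 and lowered 0, where it raised 5.26% and lowered 3.95% of 76 genes. With so few markers these counts are not read as different from the array. The median log2 change of the 5 was 0.05 (CsA), 0.59 (SB203580) and -0.02 (11R-VIVIT), beside 0.20, 0.25 and -0.04 for all genes with a measured change. The balance over the whole array depends on the reference for CsA. It raised 8 array genes and lowered 20 with the array median as the reference, and raised 22 and lowered 7 with none, against 16 and 13 with Actb. SB203580 raised 10 and lowered 7 with the median and raised 22 and lowered 5 with none, against 12 and 7. The 3 comparisons share the untreated sample. Set against each other, CsA and 11R-VIVIT differed at least 2-fold in 0 markers higher with CsA and in 1 lower (Havcr1), beside 22.8% and 15.2% of 79 genes. CsA was at least 2-fold above SB203580 in 0 markers and below it in 2 (Havcr1 and Clu), beside 12.3% and 18.5% of 81 genes. SB203580 was at least 2-fold above 11R-VIVIT in 1 marker (Clu) and below it in 0, beside 13.8% and 7.5% of 80 genes.

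**Figure D1:**
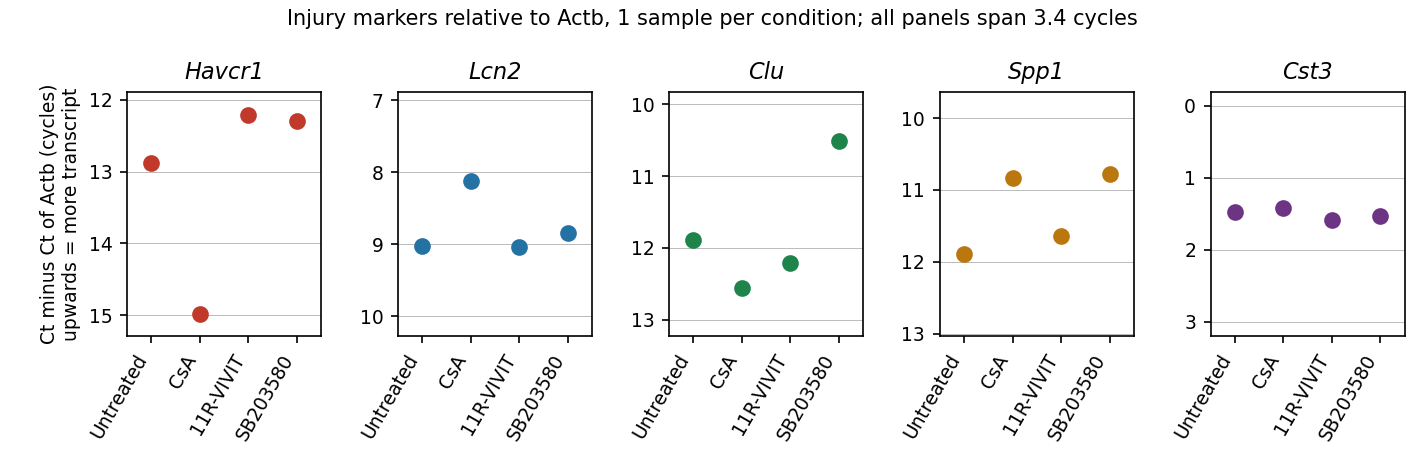
Each panel shows the Ct of 1 gene minus the Ct of Actb in cycles (y axis, inverted so that more transcript is upwards) in the untreated, CsA, 11R-VIVIT and SB203580 samples (x axis), 1 point per sample, with the same span of cycles in every panel. Havcr1 drops to 14.98 cycles after Actb with CsA, Clu stands highest with SB203580 at 10.51, and the points of Cst3 lie between 1.42 and 1.59.

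Havcr1, the gene of the membrane receptor KIM-1, was the marker that differed most between conditions. Its Ct was 31.00 in untreated cells, 32.82 with CsA, 30.34 with 11R-VIVIT and 30.10 with SB203580. The CsA sample was the low one, and the other 3 lay within 0.89 cycles of each other. Relative to Actb, Havcr1 was 4.28-fold lower with CsA than in untreated cells (log2 change -2.10), the third lowest of the 70 genes measured in both samples. Ranks leave out genes not detected in 1 of the samples, such as G6pc, whose log2 change with CsA was at most -2.21. With 11R-VIVIT it was 1.59-fold (log2 change 0.67) and with SB203580 1.502-fold (0.59) the untreated level, both short of 2-fold. Compared directly, without the untreated sample, Havcr1 under CsA stood -2.77 log2 units from 11R-VIVIT and -2.69 from SB203580. In the latter comparison it was the lowest of the 76 genes measured in both samples, while the difference of G6pc, at most -2.44, may lie lower. Over the 4 samples Havcr1 spanned 6.81-fold, the fourth widest of the 69 genes detected in all samples, whose median span was 2.34-fold. Taking the array median as the reference gave a CsA log2 change of -2.60, and no reference gave -1.82. All 4 of its values are late, after cycle 30, where a single well is less precise.

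Lcn2, the gene of NGAL, was the most readily detected of the 4 inducible markers. Its Ct was 27.14 in untreated cells, 25.97 with CsA, 27.17 with 11R-VIVIT and 26.66 with SB203580. CsA gave the highest level, and the untreated and 11R-VIVIT samples were nearly equal. Relative to Actb, the level with CsA was 1.86-fold the untreated one (log2 change 0.89), which is short of 2-fold. SB203580 gave a log2 change of 0.17 and 11R-VIVIT one of -0.02. Directly compared, Lcn2 was 1.65-fold higher with CsA than with SB203580 and 1.88-fold higher than with 11R-VIVIT. The CsA value depends on the reference, since the array median gave 0.40 and no reference gave 1.17, past 2-fold.

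Clu, the gene of clusterin, was high in the SB203580 sample and lowest in the CsA sample. Its Ct was 30.002 in untreated cells, 30.39 with CsA, 30.33 with 11R-VIVIT and 28.32 with SB203580. The SB203580 sample stood apart as the high one, and the other 3 were within 0.39 cycles. Those 3 values are late, as those of Havcr1 are, in a range where a single well is less precise. Relative to Actb, Clu was 2.59-fold higher with SB203580 than in untreated cells (log2 change 1.37), the third highest of 72 measured genes. Its log2 change was -0.67 with CsA and -0.32 with 11R-VIVIT. In the direct comparison Clu was 4.11-fold lower with CsA than with SB203580 (log2 difference -2.04), the third lowest of 76 measured genes, with the bound of G6pc lower still. SB203580 also exceeded 11R-VIVIT, by 3.23-fold. The array median as the reference moved the CsA change of Clu to -1.16, which counts as lowered, and its SB203580 change to 1.29.

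Spp1, the gene of osteopontin, was high in both the CsA and the SB203580 samples. Its Ct was 30.01 in untreated cells, 28.68 with CsA, 29.77 with 11R-VIVIT and 28.59 with SB203580. The untreated value was about as late as that of Clu, and the changes against untreated cells all rest on it. Taken relative to Actb and against untreated cells, CsA raised Spp1 2.08-fold and SB203580 raised it 2.16-fold, while 11R-VIVIT gave 1.19-fold. Both of the larger values are close to the 2-fold threshold. The CsA value missed it if the array median was the reference (log2 change 0.56) or if each cycle amplified 1.9-fold (0.98). The SB203580 value only just passed it in these settings, at 1.02 and 1.03. The log2 difference between CsA and SB203580 was -0.05. Against 11R-VIVIT, Spp1 was 1.75-fold higher with CsA and 1.81-fold higher with SB203580, both short of 2-fold, so that its distance to 11R-VIVIT was smaller than that to untreated cells. With no reference both passed 2-fold, at log2 differences of 1.09 (CsA) and 1.17 (SB203580). Spp1 was also a gene that the study picked out on these samples, so its direction is not independent evidence.

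Cst3, the gene of cystatin C, hardly varied. Its Ct was 19.59 in untreated cells, 19.27 with CsA, 19.72 with 11R-VIVIT and 19.34 with SB203580, which made it the fourth earliest of the 85 genes including Actb in untreated cells. Relative to Actb its log2 changes were 0.05 with CsA, -0.12 with 11R-VIVIT and -0.06 with SB203580. Its span over the 4 samples was 1.12-fold, the narrowest of the 69 genes detected in all of them. That span is relative to Actb. With the array median as the reference, the log2 change of Cst3 with CsA was -0.45.

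**Figure D2:**
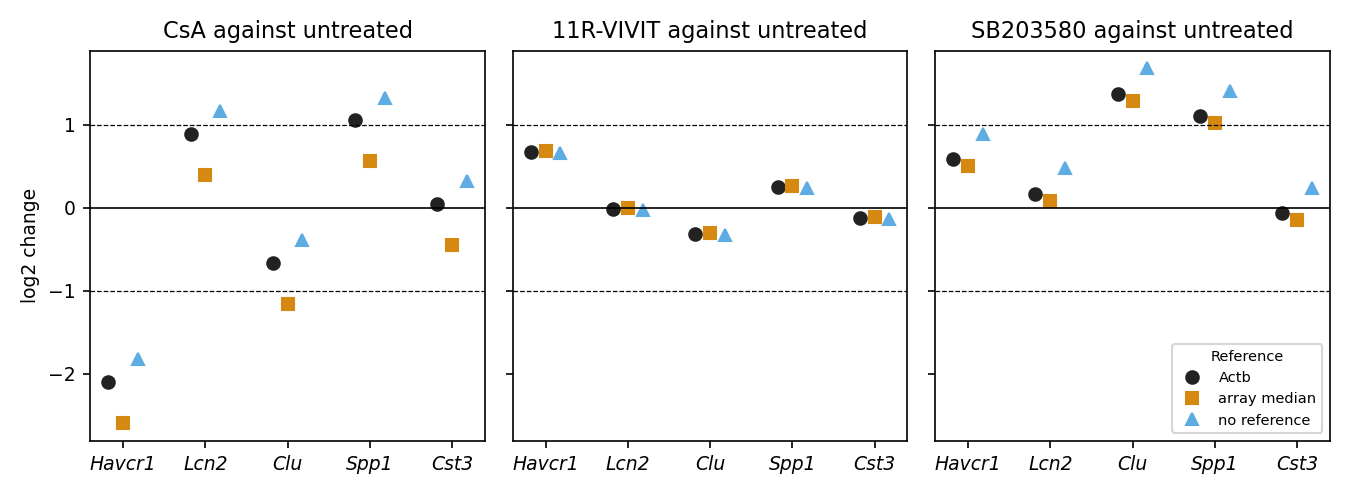
The log2 change against untreated cells (y axis) is shown for each injury marker (x axis) with CsA, 11R-VIVIT and SB203580, with Actb (circles), the array median (squares) or no gene (triangles) as the reference, and dashed lines mark 2-fold. Havcr1 lies below -1 with CsA under all 3 references, Clu and Spp1 lie above 1 with SB203580 under all 3, and Lcn2 and Spp1 with CsA fall on either side of 1.

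Distances between markers within 1 sample do not depend on any reference gene. In untreated cells Clu and Spp1 crossed the threshold at almost the same cycle, with Spp1 0.0066 cycles later. With CsA Spp1 came 1.72 cycles before Clu, with 11R-VIVIT 0.56 cycles before it and with SB203580 0.27 cycles after it. Havcr1 came 3.86 cycles after Lcn2 in untreated cells, 3.17 with 11R-VIVIT and 3.44 with SB203580, against 6.85 with CsA. Between the marker with the highest and the one with the lowest log2 change there was a gap of 3.16 with CsA (Spp1 and Havcr1), 1.44 with SB203580 (Clu and Cst3) and 0.99 with 11R-VIVIT (Havcr1 and Clu). The gap was widest with CsA, and its lower end rests on Havcr1, as the next lowest marker, Clu, was at -0.67. CsA also changed the largest share of the array at least 2-fold against untreated cells. It raised 20% and lowered 16.2%, against 15.2% and 8.86% with SB203580 and 5.26% and 3.95% with 11R-VIVIT. Cycles of different genes are not compared as amounts, since each primer pair has its own efficiency and product.

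**Figure D3:**
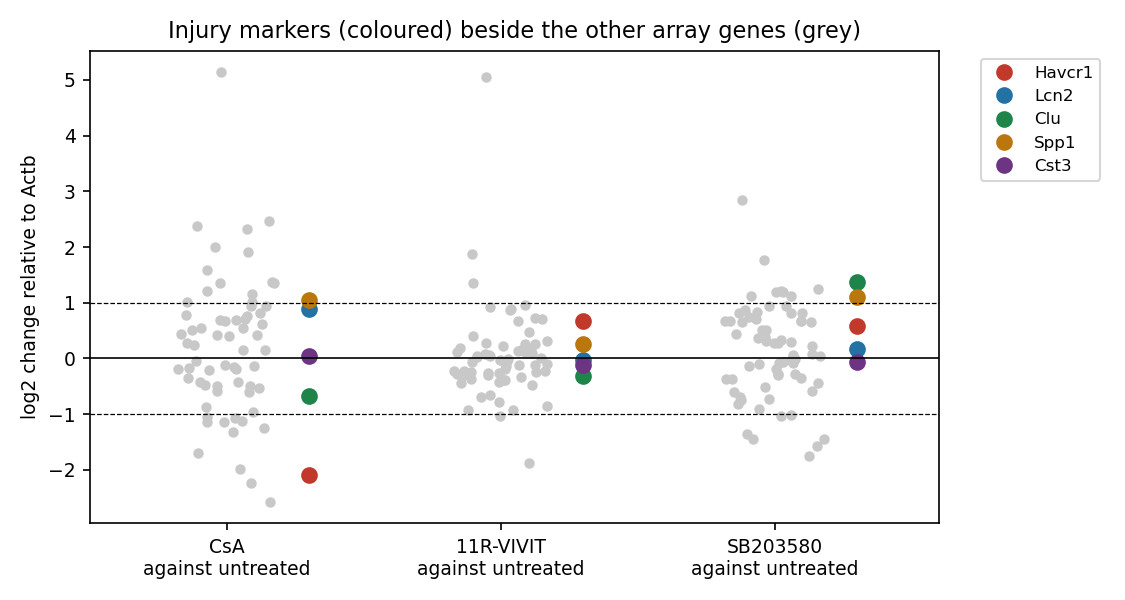
The log2 change relative to Actb (y axis) is shown for the 5 injury markers (coloured points, drawn to the right) and for the other array genes with a measured change (grey points) in each treatment against untreated cells (x axis), with dashed lines at 2-fold. Havcr1 sits near the lower edge of the array with CsA at -2.10, Clu near the upper edge with SB203580 at 1.37, and all 5 markers lie between -0.32 and 0.67 with 11R-VIVIT.

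For each marker the 2 array genes with the most similar pattern were found by the root mean square difference of the 3 log2 changes against untreated cells, among 67 other genes detected in all samples. These changes share the untreated sample, and the likeness is a description over 4 samples. Nearest to Havcr1 were Slc22a6 (an organic anion transporter) and Abcc2 (an efflux pump), at 0.51 and 0.64 log2 units. Slc22a6 had log2 changes of -1.32 with CsA, 0.27 with 11R-VIVIT and 0.66 with SB203580, and Abcc2 had -1.07, 0.31 and 0.43. Both were later than Havcr1, with untreated Ct values of 33.03 and 33.04. Nearest to Lcn2 were Idh1 (isocitrate dehydrogenase, 0.13) and Cyr61 (a matricellular protein, 0.15), and nearest to Spp1 were Nox4 (an NADPH oxidase, 0.25) and A2m (a protease inhibitor, 0.29). The study picked out Nox4 and A2m together with Spp1 on these samples, so that their likeness is not independent evidence. Havcr1 and Clu had the least close neighbours, those of Clu being Hmox2 (a heme oxygenase) at 0.42 and Klk1b3 (a kallikrein) at 0.44. Nearest to Cst3 were Bmp1 (a procollagen protease, 0.17) and Fn1 (fibronectin, 0.19). Of the pairs within the 5 markers the closest was Lcn2 and Cst3 at 0.51, followed by Lcn2 and Spp1 at 0.57. The most distant pair was Havcr1 and Spp1 at 1.86.

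The array also held 15 of 16 further genes listed for tubule injury and stress responses. CsA raised 5 of them at least 2-fold and lowered 2, beside 20% and 16.2% of the array, and their median log2 change was 0.67 over the 13 with a measured value. SB203580 raised 2 and lowered 3 of 14, beside 15.2% and 8.86%, with a median of -0.10. 11R-VIVIT raised 0 and lowered 1 of 14, beside 5.26% and 3.95%, with a median of 0.02. With the array median as the reference CsA raised 3 and lowered 2 of them, beside 8 and 20 of the 80 array genes with a value. With no reference CsA raised 6 and lowered 1, beside 22 and 7 of the 80. SB203580 then raised 4 and lowered 2, beside 22 and 5 of 79. The medians of all genes, given above, were 0.20, 0.25 and -0.04.

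The genes raised by CsA were Vim (vimentin, an intermediate filament; log2 change 2.47), Sprr1a (a small proline-rich protein; 2.38), Gadd45a (a growth arrest and DNA damage gene; 1.91), Lgals3 (galectin-3; 1.35) and Tnfrsf12a (Fn14, the TWEAK receptor; 1.15). Lgals3 (0.85) and Tnfrsf12a (0.65) missed 2-fold with the array median as the reference. SB203580 also raised Gadd45a (1.201) and Sprr1a (1.12). Hmox1, the inducible heme oxygenase, was lowered by CsA (-2.24) and SB203580 (-1.74), as was Cdkn1a, the cell cycle inhibitor p21 (-1.06 and -1.36). With 11R-VIVIT Cdkn1a also lay below untreated cells, short of 2-fold (-0.85), while Hmox1 was at 0.16. SB203580 lowered Btg2, an antiproliferative gene, by a log2 change of -1.02, and 11R-VIVIT lowered Atf3, a stress-induced transcription factor (-1.87). The log2 change of Cd44, whose protein is a receptor for osteopontin, was 0.76 (CsA), -0.10 (SB203580) and -0.12 (11R-VIVIT against untreated cells), so that it did not reach 2-fold in the samples where Spp1 did. With no reference the CsA value of Cd44 was 1.03. The calls of Cdkn1a with CsA (-0.78) and of Btg2 with SB203580 (-0.71) were lost with no reference. Havcr1 and Hmox1 lay on the same side with CsA and on opposite sides with SB203580.

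**Figure D4:**
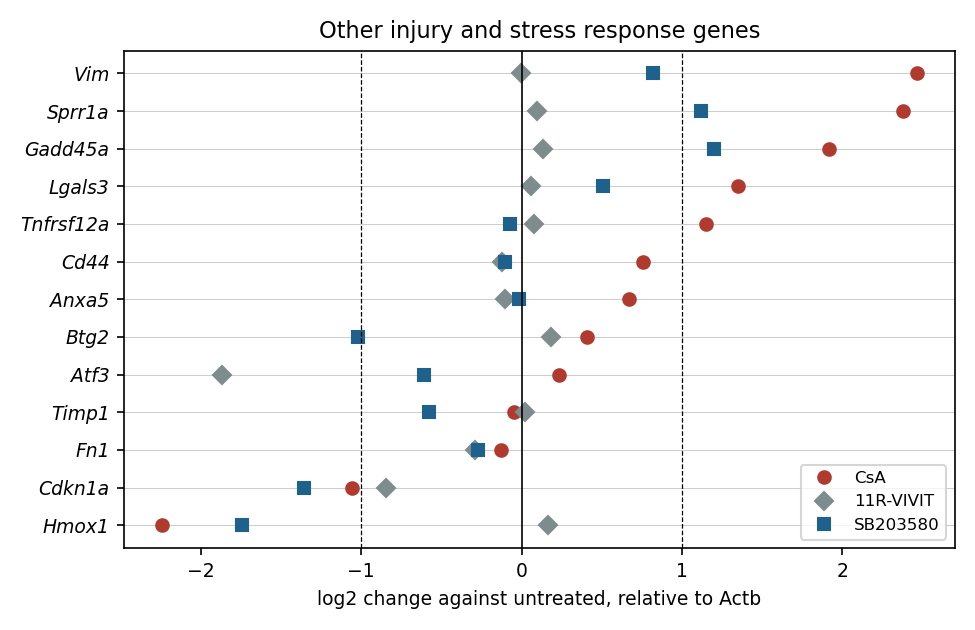
The log2 change against untreated cells relative to Actb (x axis) is shown for the 13 listed injury and stress response genes detected in all 4 samples (y axis, ordered by the CsA value) with CsA (circles), 11R-VIVIT (diamonds) and SB203580 (squares), with dashed lines at 2-fold. CsA reaches from -2.24 for Hmox1 to 2.47 for Vim, while 12 of the 13 diamonds lie within 2-fold and that of Atf3 is at -1.87.

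Among the tubule genes, CsA raised Gamt, an enzyme of creatine synthesis (log2 change 2.01), and lowered Slc22a6 (-1.32), Abcc2 (-1.07) and Egf, a growth factor of the distal tubule (-1.15). SB203580 raised Gamt (2.84) and lowered Egf (-1.45), and 11R-VIVIT changed 0 of these genes at least 2-fold. Of the 4 proximal tubule genes, Slc22a6 and Abcc2, both detected late, were lowered with CsA as Havcr1 was, beside 16.2% of the array. The others lay above untreated cells, Gamt at 2.01 and Gatm at 0.27. Slc22a6 and Abcc2 are also the genes named above as nearest to Havcr1 in pattern, so that their fall is not a separate observation. With no reference Abcc2 (-0.79) and Egf (-0.87) missed 2-fold with CsA.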

How the data were processed

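Total RNA was reverse transcribed and amplified with SYBR green on an RT-PCR array, per the labels. The authors deposited 1 Ct value per gene and sample, without normalization, and a table of their own fold changes against the untreated sample, which was not used. Threshold and baseline settings are not given in the sources used here. Columns were assigned to conditions by sample title. Changes were calculated by the delta-delta Ct method relative to Actb, the only housekeeping gene analysed here, with an amplification base of 2. A Ct of 35 or later was set to 35, and the change is then a bound. The calculation was tested on simulated arrays with known changes. Their Ct values were kept below the limit, so that the setting of bounds was not tested. The number of samples, 1 per condition, limits the precision.

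The markers, gene lists and alternatives were chosen with earlier results of these data known. Named genes were the 5 markers, Actb, the listed injury and tubule genes changed at least 2-fold against untreated cells, and the 2 genes nearest to each marker. Gatm and Calb1 were named as tissue markers, and Cd44 and G6pc after their values were seen. A listed gene is not reported here and was left out of the lists and the nearest genes, but array-wide counts include it. All 5 symbols matched RefSeq (GRCm38.p6), and 4 had a promoter entry. Calculations used Python 3.11.15, numpy 2.4.6 and pandas 2.3.3, and figures matplotlib 3.10.9.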

Additional observations from a re-analysis of the deposited data

How the results depend on the processing

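Of 210 log2 changes or differences of single markers recalculated under 7 alternatives, 186 kept their direction and side of the threshold, 13 passed the threshold, 5 no longer did and 6 turned sign. Most alternatives could not turn a sign. The other thresholds and the absence of a Ct limit left every value as it was, and the base of 1.9 only scaled them. All 6 sign changes came with a change of reference, so that 186 is not a measure of stability. The cause was not tested where it does not follow from the setting. Relative to the array median, CsA against untreated cells raised 0 markers and lowered 2, where every CsA change is lower by 0.50 and 8 array genes were raised and 20 lowered, and Cst3 turned negative for CsA against untreated cells (-0.45), CsA against 11R-VIVIT (-0.34), CsA against SB203580 (-0.30) and SB203580 against 11R-VIVIT (-0.043). With no reference, 2 markers were raised for CsA against untreated cells, beside 22 array genes. So were 2 for CsA against 11R-VIVIT, beside 27 array genes, and 2 for SB203580 against 11R-VIVIT, beside 20. In this setting Cst3 with SB203580 against untreated cells (0.24) and Havcr1 for SB203580 against 11R-VIVIT (0.24) turned positive. With an amplification base of 1.9, the call of Spp1 for CsA against untreated cells was lost (0.98). At 1.5-fold, the calls gained against untreated cells were Lcn2 (0.89) and Clu (-0.67) with CsA, and Havcr1 with 11R-VIVIT (0.67) and SB203580 (0.59). Against 11R-VIVIT, Lcn2 (0.91) and Spp1 (0.80) were gained with CsA, and Spp1 (0.86) with SB203580. Lcn2 was gained for CsA against SB203580 (0.72). At 3-fold, the calls against untreated cells of Spp1 with CsA (1.06) and of Clu (1.37) and Spp1 (1.11) with SB203580 were lost. The share of array genes called at this base and these thresholds was not counted, so these marker calls cannot be set beside the array. A Ct limit of 32 or no limit changed none of the marker counts. With the limit of 32, the CsA value of Havcr1 became a bound of at most -1.28 against untreated cells. The authors' deposited fold changes, planned as an alternative, were not run because they hold the study's own comparisons. No paired analysis was possible because each condition has 1 sample. Depth is that of single wells, whose noise is unknown.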
